A study of Mus musculus with 9 samples.

Results

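HC11 cells transfected with FoxF1 were compared with wild type HC11 cells across the genome, for gene functions beyond cell junctions, epithelial-mesenchymal transition (EMT) and the lysyl oxidases. The comparison rests on 6 of the 9 arrays of the study, 3 for FoxF1 cells and 3 for wild type cells. It covers 18497 of 19935 genes with a transcript cluster, a group of array probes for one transcript, of their own symbol. The other 1438 had the same value on all 9 arrays and could not be tested. Where a gene had several clusters, the one with the most probes was taken.

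HC11 is an epithelial cell line from the mammary gland of BALB/c mice, a clone of the COMMA-1D line, and carries a mutant p53. The FoxF1 cells were transfected stably with a FoxF1 construct. Wild type is the labels' name for the cells without a transcription factor construct. The paper's methods call them vector control, while its results on these arrays write of wild type cells. Whether these cells carried an empty vector is thus not settled here, and a part of transfection itself in the differences was not tested. The last 3 arrays are of HC11 cells transfected with NFI-C2, a CCAAT-binding transcription factor, and enter here only through the shared fit and as a second line to set beside the FoxF1 cells. The RNA came from pools of cells that were grown and harvested separately, and the sources used here leave unsaid if each pool had its own transfection. Hence the p-values measure the spread between these preparations and not that between independently made lines. For the RNA extraction the labels name Trizol and the methods another kit, and they also differ in the dose of epidermal growth factor in the medium.

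FoxF1 belongs to the forkhead family of transcription factors, which bind DNA through a winged helix domain. In the embryo it is expressed in the mesenchyme next to epithelium, in the lung, gut and vessels, where Hedgehog signals from the epithelium induce it. Mammary epithelium normally consists of luminal cells, which make milk, and basal cells, which contract around them. In the text that follows, a value is a log2 expression value relative to the gene's median over the 9 arrays, as deposited, so that a level of expression cannot be read from it. A difference is the mean of the FoxF1 cells minus that of the wild type cells, also in log2, with its standard error (SE) and the adjusted p of the limma fit. A gene is said to have risen or fallen where that adjusted p was under 0.05.

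Foxf1 itself was read by 2 clusters. The first, with 26 probes at chr8:123608309-123610779 (NCBIM37), had values of 0.32, 0.12 and 0.09 in FoxF1 cells and 0.01, 0.00 and -0.07 in wild type cells. The FoxF1 arrays all lay above the wild type arrays, by a mean difference of 0.20 (SE 0.14, adjusted p = 0.36). The second cluster, with 25 probes at chr8:123610866-123612009, had 0.36, 0.52 and 0.20 in FoxF1 cells and 0.00, 0.22 and 0.00 in wild type cells, so that the arrays overlapped. In NFI-C2 cells both clusters were lower, at -1.42, -0.91 and -1.46 in the first and -1.12, -1.06 and -0.94 in the second. Whether the probes lie within the transfected sequence is not known here, and the arrays therefore do not check the labels of the FoxF1 cells.

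The defining markers of mammary cells were compared between the groups. Values relative to a median cannot show whether wild type cells express them, so the epithelial label of the line was not checked. Epcam, an adhesion molecule of epithelial cells, had -5.82, -6.65 and -6.15 in FoxF1 cells and 0.46, 0.33 and 0.34 in wild type cells. The luminal keratins Krt8 and Krt18 fell by 5.58 (SE 0.27, adjusted p = 2e-06) and 4.38 (SE 0.04, adjusted p = 1.2e-09), the basal keratin Krt14 by 5.59 (SE 0.16, adjusted p = 1.2e-07) and the basal transcription factor Trp63 by 3.42 (SE 0.08, adjusted p = 4.2e-08). These markers were lower on every FoxF1 array than on every wild type array, but not all other members of the lists fell. In NFI-C2 minus wild type cells Krt18 (-3.21) and Krt8 (-1.13) were lower too, and Trp63 was higher (0.77). FoxF1 minus NFI-C2 was -1.18 for Krt18 and -4.45 for Krt8. Of 11 luminal markers 6 fell and 1 rose, with a median difference of -1.68, and of 15 basal markers 7 fell (4 without the genes on chromosome 11) and 3 rose, with a median difference of -0.02. Those that rose were the luminal marker Esr1 (1.14) and the basal markers Acta2 (1.96), Cnn1 (1.18) and Itgb1 (0.46), of which Itgb1 is an integrin chain. Csn2, the milk protein β-casein, had 0.00 on every FoxF1 array and 0.08, 0.00 and 0.00 on the wild type arrays. Over the whole lists, the mean value of the luminal markers was between -1.66 and -1.53 on FoxF1 arrays and between 0.57 and 0.63 on wild type arrays. That of the basal markers was between -2.14 and -1.88 on FoxF1 arrays and between -0.03 and -0.01 on wild type arrays. In RNA from whole cultures, fewer cells of a type and less RNA per cell cannot be told apart.

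Of the 18497 genes, 7215 (39.0%) differed between FoxF1 and wild type cells. A total of 3730 genes (20.2%) rose, with a median difference of 0.45, and 3485 (18.8%) fell, with a median difference of -0.55. By 1.5-fold or more, 1297 genes (7.01%) rose and 1671 (9.03%) fell. By 4-fold or more, 117 genes were higher and 385 lower, and by 16-fold or more, 10 were higher and 86 lower. In 8253 genes (44.6%) no FoxF1 array fell within the range of the wild type arrays or the reverse. In the same fit 7770 genes (42.0%) differed between FoxF1 and NFI-C2 cells, a comparison that shares the FoxF1 arrays. The values spread more widely over genes on FoxF1 arrays (SD 0.622 to 0.635) than on NFI-C2 (0.223 to 0.24) and wild type arrays (0.194 to 0.203).

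The 15 largest rises, of 12.9-fold to 42.9-fold, were led by a collagen receptor and a homeobox transcription factor of limb and facial mesenchyme. Ddr2, a receptor tyrosine kinase activated by fibrillar collagen (chr1:171907777-172040692, NCBIM37), had 5.37, 5.31 and 5.43 in FoxF1 cells and 0.00, 0.02 and -0.19 in wild type cells (difference 5.42, SE 0.06, adjusted p = 2e-09). Prrx1, the homeobox factor (chr1:165175247-165243781), had 5.23, 5.29 and 5.16 in FoxF1 cells and -0.03, -0.06 and 0.00 in wild type cells (difference 5.26, SE 0.04, adjusted p = 3.1e-10). For both genes the 3 FoxF1 arrays lay close together and far above every wild type array. Pcdh19, a protocadherin known from the nervous system (5.14), and Fhl1, a LIM domain protein abundant in muscle (4.87), are both on the X chromosome and followed. Cxcl12, the chemokine that binds the receptor CXCR4, had 4.58, 4.55 and 4.25 in FoxF1 cells and 0.00, -0.09 and 0.00 in wild type cells, a 22.5-fold difference.

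The other large rises include Gpnmb, a transmembrane glycoprotein (4.21), Ncam1, the neural cell adhesion molecule (3.82), Scn3a, a subunit of voltage-gated sodium channels (3.76), Ccn3, a matricellular protein (3.74), and Pdgfrb, a receptor for platelet-derived growth factor (3.69). The EMT transcription factor Zeb1 (4.15), the lysyl oxidases Lox (4.93) and Loxl1 (3.80) and the secreted protein Ccdc80 (4.24) also belong to the 15. Ogn, the small proteoglycan osteoglycin, had the widest spread among them, with 4.78, 3.91 and 3.39 in FoxF1 cells and 0.00, 0.00 and -0.04 in wild type cells. FoxF1 replicate 1 was the highest of the 3 FoxF1 arrays for Ogn, and no FoxF1 array came near the wild type arrays.

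The 15 largest falls, of up to 163-fold, included keratins, adhesion molecules, an enzyme, a transporter and regulators of transcription and splicing. Krt5, the basal keratin (chr15:101537501-101543322, NCBIM37), had -5.95, -8.19 and -7.92 in FoxF1 cells and -0.03, 0.00 and 0.01 in wild type cells (difference -7.35, SE 0.52, adjusted p = 1.7e-05). Bbox1, the last enzyme of carnitine synthesis (chr2:110102854-110145900), had -6.33, -7.24 and -7.05 in FoxF1 cells and -0.01, 0.00 and 0.00 in wild type cells (difference -6.87, SE 0.21, adjusted p = 1.7e-07). Both genes were lowest on FoxF1 replicates 2 and 3. Replicate 1 was the FoxF1 array nearest to 0 for 13 of the 15 falls and for 51 of the 86 falls of 16-fold or more, and the medians of the 86 were -4.46, -4.65 and -4.62 on the FoxF1 arrays.

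Further large falls were those of Igfbp5, a binding protein for insulin-like growth factors (-6.65), Gabrp, a subunit of the GABA-A receptor found in epithelia (-6.46), Slc5a8, a transporter of lactate and short-chain fatty acids (-5.73), and Nkd2, an inhibitor of Wnt signaling (-5.97). Esrp1, a splicing factor of epithelial cells (-6.35), Ehf, an ETS transcription factor of epithelia (-5.97), the secreted protein Wfdc18 (-6.93), Plet1 (-6.25), Bpifc (-5.73), Krt17 (-6.78), Epcam (-6.58) and the cadherins Dsg3 (-6.47) and Cdh1 (-5.82) make up the rest. The SE of the 15 falls was between 0.04 and 0.52. All 15 were also lower in FoxF1 than in NFI-C2 cells. In NFI-C2 minus wild type cells 7 of the 15 differed, with the largest differences in Igfbp5 (-2.68), Slc5a8 (-1.86) and Gabrp (-1.83). For these genes part of the fall was thus shared with the other transfected line, whereas Dsg3 was higher in NFI-C2 cells (0.40).

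**Figure D1:**
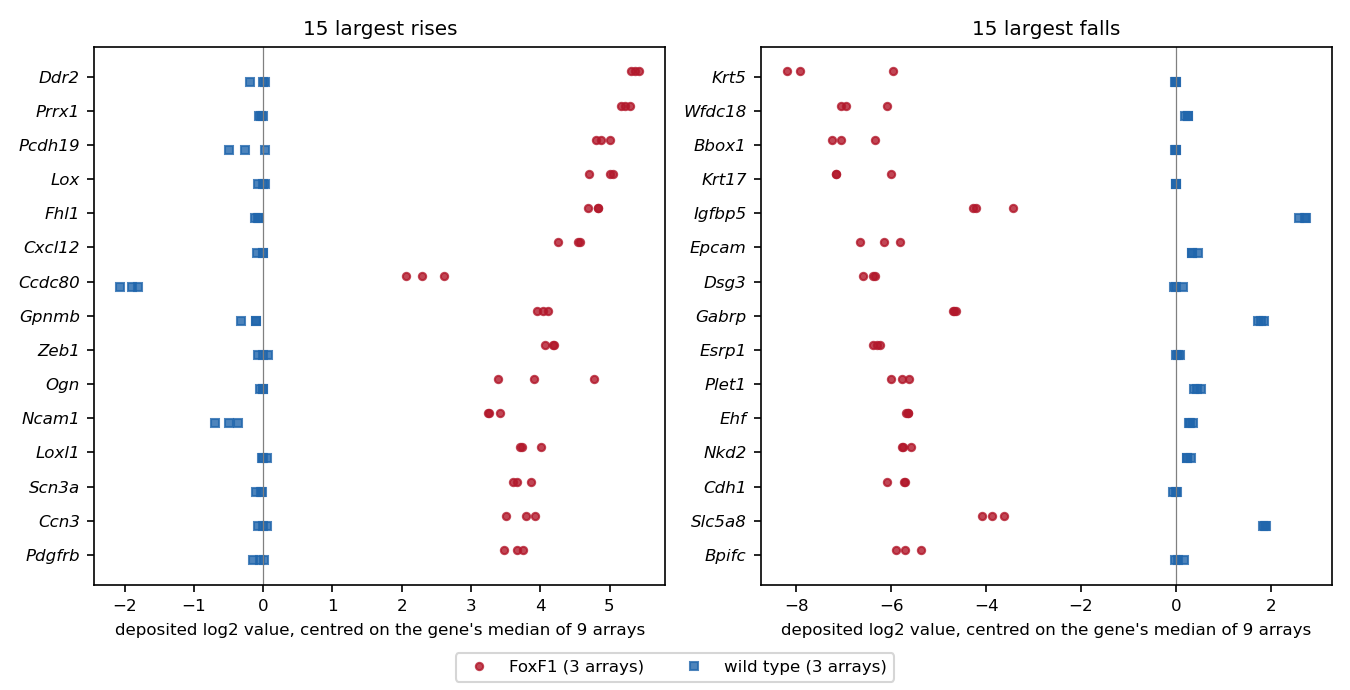
Deposited log2 values, centred on each gene's median of the 9 arrays, on the 3 FoxF1 arrays (circles) and the 3 wild type arrays (squares) for the 15 largest rises (left) and the 15 largest falls (right). Genes with overlapping arrays were not eligible, and Ogn among the rises and Krt5 among the falls showed a wide spread between FoxF1 arrays.

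The promoters of the genes with the largest changes were searched for the forkhead core motif GTAAACA on both strands, since FoxF1 is a forkhead protein. Promoters are those of RefSeq on GRCm38.p6, from 250 bases before to 50 bases after the start site, and exist here for 14496 of the tested genes. The motif was in 2.74% of the promoters of genes that rose (82 of 2992, Wilson 95% confidence interval 2.21 to 3.39%), in 2.94% of those of genes that fell (81 of 2756, 2.37 to 3.64%) and in 3.46% of those of all tested genes (501 of 14496, 3.17 to 3.77%). Of the 10 largest rises and the 10 largest falls, 7 each had a promoter, with the motif in 0 of the rises and in 1 of the falls. That promoter is the one of Bbox1, at chr2:110305676-110305975 on the minus strand (GRCm38.p6). The capitals in its sequence mark the motif, which reads TGTTTAC on this strand with its first base at -116 from the start site.
Bbox1 promoter: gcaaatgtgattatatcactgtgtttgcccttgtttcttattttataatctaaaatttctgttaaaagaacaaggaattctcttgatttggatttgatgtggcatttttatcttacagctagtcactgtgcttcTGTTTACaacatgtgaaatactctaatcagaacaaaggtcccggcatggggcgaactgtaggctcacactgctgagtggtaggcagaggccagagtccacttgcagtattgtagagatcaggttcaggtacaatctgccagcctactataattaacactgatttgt
A match in these letters is not a binding site, and the absence of one says nothing about FoxF1 binding elsewhere.

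A total of 72 gene lists with 1957 tested genes described the functions that changed. The shares of all tested genes that rose (20.2%) and fell (18.8%), given above, are the background for each count, and the median difference over all genes was 0.01. The lists were chosen with earlier results of these data known, so their counts describe the cells and are not a test. Figures for each list are the genes that rose and fell out of those tested, whatever the size of the change.

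**Figure D2:**
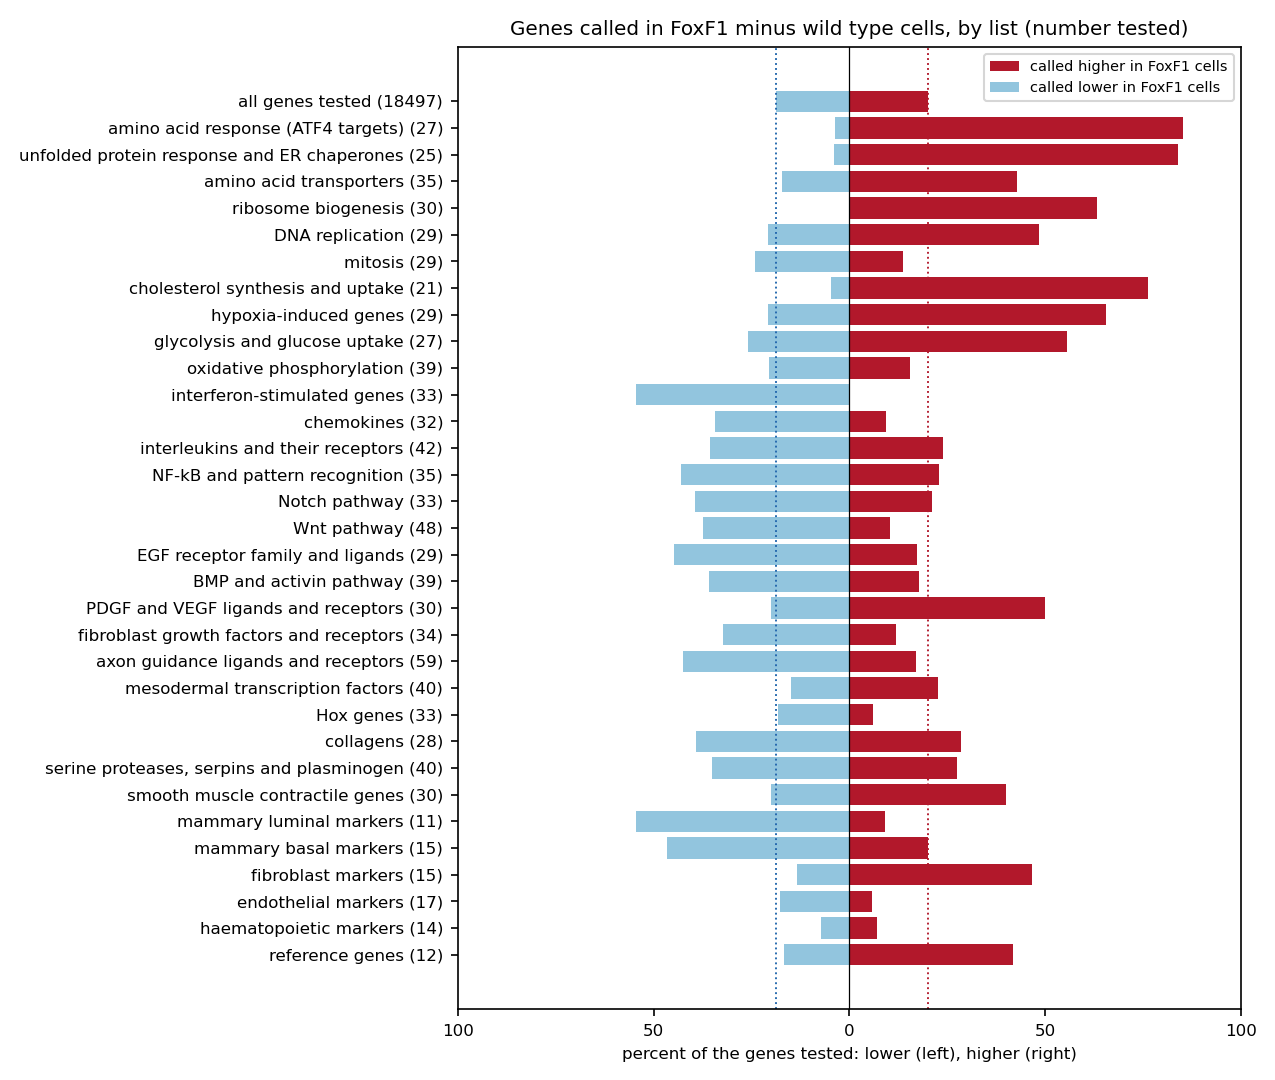
Percent of the tested genes that rose (bars to the right) and fell (bars to the left) in FoxF1 minus wild type cells, with the number tested in parentheses and the shares of all tested genes as dotted lines, for a selection of the lists. The amino acid response list lies at 85.2% higher and the interferon-stimulated list at 54.5% lower.

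The list in which the largest share rose was the amino acid response, the genes that the transcription factor ATF4 induces when amino acids are short. Of 27 genes, 23 rose (85.2%) and 1 fell, with a median difference of 1.11. Slc7a11, the cystine transporter, had 2.59, 2.78 and 2.79 in FoxF1 cells and -0.67, -0.48 and -0.61 in wild type cells (difference 3.31, SE 0.08, adjusted p = 6.1e-08). Gpt2, a mitochondrial alanine aminotransferase, had 2.97, 3.04 and 2.96 in FoxF1 cells and -0.02, -0.02 and 0.00 in wild type cells (difference 3.00, SE 0.04, adjusted p = 3.1e-09). In both genes all FoxF1 arrays were well above all wild type arrays and above the NFI-C2 arrays, which had between -0.11 and 0.15. Cth, which makes cysteine from cystathionine, rose by 3.01 (SE 0.12, adjusted p = 6.4e-07), Pck2, the mitochondrial form of phosphoenolpyruvate carboxykinase, by 1.82 (SE 0.04, adjusted p = 4.4e-08) and Trib3, a pseudokinase that ATF4 induces, by 1.76 (SE 0.10, adjusted p = 6.1e-06).

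Atf4 itself had 1.08, 1.07 and 1.16 in FoxF1 cells and -0.03, 0.05 and 0.00 in wild type cells, a 2.14-fold difference (adjusted p = 4.2e-06). Cebpb, a transcription factor of many stress and immune responses, was the one member that fell (-0.92, SE 0.08, adjusted p = 6.1e-05). The list of amino acid transporters, which also holds Slc7a11, had 15 of 35 genes higher and 6 lower. Slc1a4, a carrier of alanine, serine and cysteine (2.56), Slc7a2, a carrier of arginine and lysine (2.29), and Slc1a5, a glutamine carrier (1.82), rose, while Slc1a1, a glutamate carrier, fell by 3.43 (SE 0.09, adjusted p = 9.2e-08). Slc1a1 had -2.49, -2.51 and -2.21 in FoxF1 cells and 1.00, 1.06 and 1.04 in wild type cells, so that the arrays stood far apart.

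The unfolded protein response, which adjusts the folding capacity of the endoplasmic reticulum, also rose in most of its genes. Of 25 genes, 21 rose (84.0%, and 15 after quantile normalization) and 1 fell, with a median difference of 0.39. The differences were smaller than in the amino acid list, where 18 genes rose by 1.5-fold or more, against 9 here. When tested against a change of 1.5-fold, 16 genes of the amino acid list and 4 of this list rose, and 1 fell in each. Ddit3, the stress transcription factor CHOP, had 1.46, 1.53 and 1.58 in FoxF1 cells and -0.22, 0.00 and -0.57 in wild type cells (difference 1.79, SE 0.15, adjusted p = 4.5e-05). The stress sensor Atf6 rose by 1.36 (SE 0.04, adjusted p = 1.4e-07), Herpud1, a part of the degradation machinery, by 1.24 (SE 0.03, adjusted p = 9.1e-08) and the chaperone Hspa5 by 0.67 (SE 0.05, adjusted p = 2e-05). P4hb, a protein disulfide isomerase, was the member that fell (-0.82, SE 0.04, adjusted p = 2.7e-06), and it lies near the end of chromosome 11, where most neighbouring genes fell too. Among 19 heat shock proteins 7 rose (2 after quantile normalization) and 4 fell, with the largest change in the small heat shock protein Cryab (-2.82, SE 0.08, adjusted p = 1.1e-07).

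Genes for making ribosomes rose in 19 of 30 cases (10 by 1.5-fold or more) and fell in 0, with a median difference of 0.36. Bop1 and Pes1, partners in maturing the large ribosomal subunit, had differences of 1.26 (SE 0.09, adjusted p = 1.6e-05) and 0.90 (SE 0.07, adjusted p = 2.6e-05). Polr1a, the large subunit of RNA polymerase I, rose by 0.79 (SE 0.08, adjusted p = 1.4e-04). After quantile normalization 11 of the 30 rose. The ribosomal proteins themselves showed no such excess, with 3 of 27 higher, 4 lower and a median difference of 0.01. When 1 array was left out, 2 to 6 of them rose and 2 to 4 fell. Of 30 proteasome genes 11 rose and 4 fell (1 without the genes on chromosome 11), and after quantile normalization 3 rose and 2 fell. By 1.5-fold or more 0 of them rose and 0 fell. Of 28 spliceosome genes 11 rose and 3 fell, against 5 and 5 after quantile normalization, and 1 fell without FoxF1 replicate 1 or without wild type replicate 1 or 2. The shares that rose, 36.7% for the proteasome and 39.3% for the spliceosome, were near that of the 12 reference genes (41.7%). The counts of these lists of housekeeping machinery thus changed under quantile normalization, whereas the amino acid response list had 23 higher under it too. Quantile normalization gives all arrays the same spread of values, and the FoxF1 arrays spread more widely than the others. It therefore shrinks FoxF1 differences by construction. Over all genes, the number that rose went from 3730 to 2526 under it and the number that fell from 3485 to 2994. Whether scaling has a part in the rises of these lists was not tested.

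**Figure D3:**
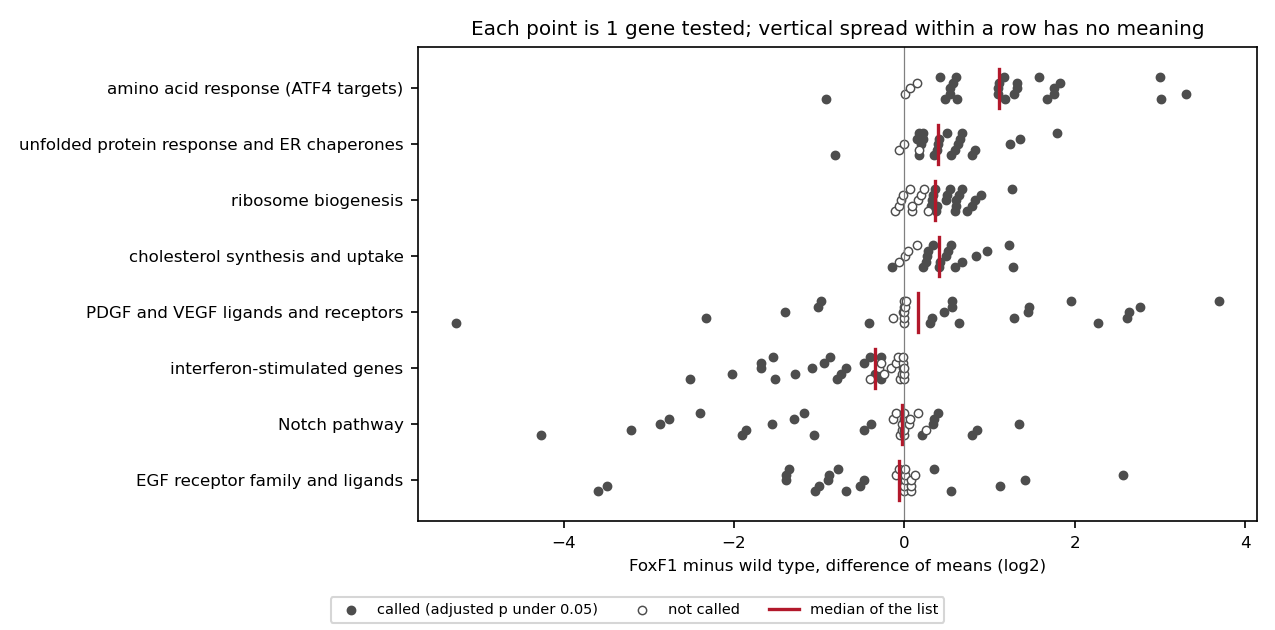
Difference of means, FoxF1 minus wild type in log2, for each tested gene of 8 lists (filled circles passed the test, open circles did not), with the median of each list as a vertical bar. The amino acid response genes lie almost wholly to the right of 0, and the interferon-stimulated genes to the left of or at 0.

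In the cell cycle, 14 of 29 DNA replication genes rose (5 by 1.5-fold or more) and 6 fell (0 by 1.5-fold or more), with a median difference of 0.24. After quantile normalization 9 rose, and without FoxF1 replicate 2 or wild type replicate 2, 3 fell. Examples were Mcm2 and Mcm3 of the replicative helicase at 0.47 (SE 0.07, adjusted p = 8.6e-04) and 0.59 (SE 0.09, adjusted p = 0.0015). Of 29 mitosis genes 4 rose and 7 fell. The number that rose was 2 after quantile normalization or without FoxF1 replicate 3, but 6 without FoxF1 replicate 1, close to the number that fell. The mitotic gene with the largest change was Birc5, survivin, at -1.45 (SE 0.09, adjusted p = 7.1e-06), again near the end of chromosome 11, whereas Mki67, the antigen Ki-67 of cycling cells, rose by 0.40 (SE 0.05, adjusted p = 3.9e-04). Among cyclins and inhibitors of the first gap phase, 9 of 23 rose and 10 fell.

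Cdkn2b, an inhibitor of cyclin D kinases, had 1.55, 1.22 and 1.10 in FoxF1 cells and -0.42, -0.50 and -0.59 in wild type cells (difference 1.80, SE 0.11, adjusted p = 6.6e-06). The related inhibitor Cdkn2c rose by 1.42 (SE 0.07, adjusted p = 2.4e-06). Among those that fell were Ccnd2, cyclin D2 (-1.28, SE 0.06, adjusted p = 1.7e-06), and the transcription factor Mycn (-1.40, SE 0.11, adjusted p = 2.9e-05). Known p53 targets rose in 10 of 21 cases and fell in 6. Gadd45a, a stress protein that binds PCNA and is also induced without p53, had 3.30, 3.22 and 3.28 in FoxF1 cells and 0.00, -0.09 and -0.36 in wild type cells, a 10.7-fold difference (adjusted p = 8.8e-08). In contrast, Phlda3, an inhibitor of the kinase AKT, fell by 1.95 (SE 0.06, adjusted p = 2.3e-07). In the BCL2 family of apoptosis regulators 4 of 18 rose (2 after quantile normalization) and 4 fell, among them the survival protein Bcl2l1 (-1.07, SE 0.03, adjusted p = 5.2e-08) and the death-promoting Pmaip1 (1.16, SE 0.25, adjusted p = 0.0073).

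Of 21 genes of cholesterol synthesis and uptake, 16 rose (6 by 1.5-fold or more) and 1 fell (by less than 1.5-fold), with a median difference of 0.41. Insig1, which retains the sterol sensor in the endoplasmic reticulum, had 1.11, 1.18 and 0.99 in FoxF1 cells and -0.11, -0.06 and -0.37 in wild type cells (difference 1.27, SE 0.08, adjusted p = 1.1e-05). The synthesis enzymes Cyp51 and Msmo1 rose by 0.97 (SE 0.05, adjusted p = 2.7e-06) and 0.84 (SE 0.03, adjusted p = 4e-07). Fatty acid genes went both ways. Of 29 genes of synthesis and storage 15 rose and 5 fell (3 without the genes on chromosome 11), and of 27 oxidation genes 8 rose and 9 fell.

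Fasn, fatty acid synthase, had -1.49, -1.39 and -1.39 in FoxF1 cells and 0.43, 0.44 and 0.44 in wild type cells (difference -1.86, SE 0.04, adjusted p = 2.9e-08). Fabp4, a fatty acid carrier of adipocytes and endothelium, had 2.93, 2.36 and 1.94 in FoxF1 cells and 0.00, 0.00 and -0.10 in wild type cells (difference 2.44, SE 0.22, adjusted p = 6.1e-05). Both differences were larger than the spread within either group. Adipocyte markers, a list that holds Fabp4 itself, had 3 of 12 higher and 1 lower, with 1 higher when any 1 of the wild type arrays or NFI-C2 replicate 2 was left out. Their mean value was between 0.09 and 0.23 on FoxF1 arrays and between -0.03 and -0.02 on wild type arrays. Fabp4 had the highest difference of the list (2.44) and weighs heavily in that mean. The median difference of the list was 0.05, and Cebpa was the member that fell (-0.97). Whether adipocytes have a part in the Fabp4 value was not tested.

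In glucose metabolism, 15 of 27 genes rose (9 after quantile normalization) and 7 fell, with a median difference of 0.19. The enolases Eno3, known from muscle, and Eno2, known from neurons, rose by 2.16 (SE 0.10, adjusted p = 1.7e-06) and 1.89 (SE 0.08, adjusted p = 1.1e-06), and the glucose transporter Slc2a1 by 0.71 (SE 0.04, adjusted p = 2.7e-06). The fructose bisphosphatases of gluconeogenesis, Fbp2 and Fbp1, fell by 4.22 (SE 0.10, adjusted p = 4.4e-08) and 1.97 (SE 0.07, adjusted p = 3.7e-07). Fbp2 had -2.47, -2.23 and -2.66 in FoxF1 cells and 1.72, 1.79 and 1.78 in wild type cells, whereas NFI-C2 cells had between -0.01 and 0.09. Hypoxia-induced genes rose in 19 of 29 cases (14 after quantile normalization, 7 by 1.5-fold or more) and fell in 6 (5 by 1.5-fold or more), with a median difference of 0.35. Pdk1, a kinase that shuts off pyruvate dehydrogenase, rose by 1.16 (SE 0.11, adjusted p = 6.7e-05) and the angiogenic factor Vegfa by 0.47 (SE 0.05, adjusted p = 2.1e-04), but the carbonic anhydrase Car9 fell by 1.71 (SE 0.19, adjusted p = 2.1e-04) and the clock repressor Bhlhe41 by 2.72 (SE 0.11, adjusted p = 8.8e-07).

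The tricarboxylic acid cycle had 14 of 24 genes higher (7 after quantile normalization) and 6 lower, with Idh1, the cytosolic isocitrate dehydrogenase, at 1.18 (SE 0.05, adjusted p = 1.3e-06). Oxidative phosphorylation stayed near the background, with 6 of 39 higher (3 after quantile normalization), 8 lower and a median difference of -0.01. Of 29 genes of the pentose phosphate pathway and nucleotide synthesis 14 rose and 5 fell (3 without wild type replicate 2), the largest rise being that of Xdh, xanthine oxidoreductase (2.08, SE 0.10, adjusted p = 1.7e-06). Of 26 aldehyde dehydrogenases and cytochromes P450 8 rose (5 without wild type replicate 1) and 7 fell, among them Aldh1l2, a mitochondrial enzyme of folate metabolism (3.03, SE 0.08, adjusted p = 7.6e-08).

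Antioxidant genes, those of NRF2 and glutathione, rose in 14 of 32 cases and fell in 9. Gpx2, a glutathione peroxidase of epithelia, had -5.55, -5.83 and -5.63 in FoxF1 cells and -0.02, 0.09 and 0.00 in wild type cells, a 51.8-fold difference (adjusted p = 5.7e-09). Gstm1 and Gstm2, glutathione transferases, rose by 1.68 (SE 0.13, adjusted p = 2.6e-05) and 1.57 (SE 0.21, adjusted p = 6.1e-04), with the caution that their near-identical sequences can share probes. Hmox1, heme oxygenase, rose by 1.39 (SE 0.08, adjusted p = 6.8e-06), while Nqo1, a quinone reductase, fell by 1.31 (SE 0.07, adjusted p = 2.7e-06). For metal handling, 13 of 31 genes rose and 9 fell, and the family of metalloreductases was split. Steap1 rose by 3.19 (SE 0.11, adjusted p = 3.7e-07) and Steap4 fell by 4.18 (SE 0.21, adjusted p = 2.5e-06).

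Of 37 lysosomal genes 16 rose and 8 fell. The cathepsins did not move together. Ctsz had -0.02, -0.15 and 0.00 in FoxF1 cells and 3.90, 4.09 and 4.14 in wild type cells (difference -4.10, SE 0.09, adjusted p = 4.5e-08), and NFI-C2 cells, at 0.01, -0.27 and -0.26, were as low as FoxF1 cells (FoxF1 minus NFI-C2 0.12, adjusted p = 0.41). Ctsh fell by 3.43 (SE 0.09, adjusted p = 8e-08) and differed from NFI-C2 cells as well (-3.18). Ctsb and the asparaginyl protease Lgmn rose by 1.44 (SE 0.08, adjusted p = 3.6e-06) and 1.68 (SE 0.05, adjusted p = 2.4e-07). Of 29 autophagy genes 8 rose and 8 fell, with 5 lower outside chromosome 11 and 4 lower after quantile normalization.

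Genes that interferons induce fell in 18 of 33 cases (54.5%) and rose in 0, with a median difference of -0.35, and 14 fell when the genes on chromosome 11 were left out. The sensors of viral RNA were among them. Ddx58, which encodes RIG-I, had -1.36, -1.53 and -1.90 in FoxF1 cells and 0.44, 0.36 and 0.48 in wild type cells (difference -2.02, SE 0.12, adjusted p = 6.8e-06). Ifih1, which encodes MDA5, had -0.85, -0.84 and -1.41 in FoxF1 cells and 0.61, 0.73 and 0.60 in wild type cells (difference -1.68, SE 0.14, adjusted p = 4.7e-05). FoxF1 replicate 3 was the lowest array for both, and the groups did not overlap. Rtp4, a chaperone of G protein-coupled receptors that interferon induces (-2.52, SE 0.15, adjusted p = 5.7e-06), Ifit1, which binds viral RNA (-1.54, SE 0.06, adjusted p = 9.2e-07), and Oasl2 (-1.52, SE 0.21, adjusted p = 7.9e-04) fell as well. Oasl2 did not differ significantly from NFI-C2 cells (-0.51, adjusted p = 0.11).

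In other lists of innate immunity, falls outnumbered rises. Of 35 genes of NF-κB and pattern recognition, 15 fell and 8 rose (4 after quantile normalization), with Tlr3, a receptor for double-stranded RNA, at -2.65 (SE 0.09, adjusted p = 3.3e-07) and Cd14, a coreceptor for lipopolysaccharide, at -2.17 (SE 0.15, adjusted p = 1.5e-05). Of 25 complement and acute phase genes 8 fell and 4 rose. Lcn2, an iron-scavenging protein of epithelia, had -5.00, -5.59 and -5.87 in FoxF1 cells and 0.33, 0.13 and 0.12 in wild type cells, a 51.3-fold difference (adjusted p = 3.8e-07). In the other direction, Ptx3, a soluble pattern recognition protein, rose by 3.37 (SE 0.05, adjusted p = 6.2e-09) and C1s1, a protease of the complement cascade, by 3.32 (SE 0.21, adjusted p = 9.6e-06). Antigen presentation genes fell in 6 of 23 cases and rose in 3.

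Of 32 chemokines and receptors, 11 fell and 3 rose (5 without FoxF1 replicate 1), with a median difference of -0.01. The list holds 11 genes of chromosome 11, and without them 7 fell and 2 rose. Against the rise of Cxcl12 described above, the neutrophil chemokine Cxcl5 had -3.53, -3.68 and -3.72 in FoxF1 cells and 0.15, 0.11 and 0.03 in wild type cells (difference -3.74, SE 0.06, adjusted p = 1e-08). Cxcl1 fell by 2.83 (SE 0.09, adjusted p = 1.8e-07), Cxcl16, a transmembrane chemokine, by 3.96 (SE 0.08, adjusted p = 2e-08), and Ackr3, a scavenging receptor for Cxcl12, rose by 1.03 (SE 0.07, adjusted p = 9.7e-06). Interleukins and their receptors were divided, 15 of 42 lower and 10 higher. Il6 had -0.59, -0.59 and -0.37 in FoxF1 cells and 2.65, 2.55 and 2.54 in wild type cells (difference -3.10, SE 0.06, adjusted p = 2.8e-08), and NFI-C2 cells were low too, at 0.05, 0.00 and 0.00. The colony-stimulating factor Csf1 rose by 1.45 (SE 0.06, adjusted p = 7.4e-07) and Il6st, the shared receptor chain of the IL-6 family, by 1.42 (SE 0.09, adjusted p = 1e-05).

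In the TNF superfamily 11 of 35 genes rose and 5 fell. Tnfrsf9, a costimulatory receptor, had 3.33, 2.79 and 3.02 in FoxF1 cells and -0.58, -0.41 and -0.61 in wild type cells, a 12.0-fold difference (adjusted p = 9.3e-07). Tnfsf10, the death ligand TRAIL, fell by 2.01 (SE 0.10, adjusted p = 2.1e-06). Prostaglandin and leukotriene genes fell in 7 of 29 cases and rose in 2. Of 14 haematopoietic markers 1 rose and 1 fell. Their mean value was between 0.00 and 0.03 on FoxF1 arrays and between -0.01 and 0.02 on wild type arrays. The defining marker Ptprc had 0.00, 0.00 and 0.01 against 0.00, -0.14 and -0.02. As values are relative to each gene's median, they compare the groups and cannot show whether leukocytes were present in both.

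Among signaling pathways between neighbouring cells, Notch genes fell in 13 of 33 cases and rose in 7 (4 after quantile normalization), with a median difference of -0.03. The receptor gene Notch1 had -3.26, -2.96 and -3.40 in FoxF1 cells and 0.02, 0.00 and 0.00 in wild type cells (difference -3.21, SE 0.13, adjusted p = 7e-07). The ligand gene Jag2 fell by 2.87 (SE 0.09, adjusted p = 2.3e-07), and the target genes Hey1, Nrarp and Hes1 by 4.26 (SE 0.10, adjusted p = 5.1e-08), 2.76 (SE 0.09, adjusted p = 2.4e-07) and 2.40 (SE 0.07, adjusted p = 2.1e-07). Hey1 had -1.63, -1.38 and -1.67 in FoxF1 cells and 2.89, 2.66 and 2.56 in wild type cells, with NFI-C2 cells between them at -0.06, 0.00 and 0.00. By contrast Rbpj, the DNA-binding partner of the Notch receptors, rose by 1.34 (SE 0.06, adjusted p = 9.3e-07), as did the target Hey2 (0.85, SE 0.06, adjusted p = 2.5e-05). Notch2 had a difference of 0.05 (adjusted p = 0.55).

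Wnt pathway genes fell in 18 of 48 cases and rose in 5, with a median difference of -0.01. The secreted inhibitor Sfrp1 had -4.62, -4.53 and -4.73 in FoxF1 cells and 0.66, 0.64 and 0.63 in wild type cells (difference -5.27, SE 0.05, adjusted p = 1.1e-09), and the secreted inhibitor Wif1 fell by 2.99 (SE 0.14, adjusted p = 1.5e-06). Receptors fell too, with Lgr4 and Lgr6, which bind R-spondins, at -2.20 (SE 0.08, adjusted p = 4.8e-07) and -2.07 (SE 0.10, adjusted p = 1.8e-06) and Fzd7 at -1.85 (SE 0.08, adjusted p = 1.6e-06). The members that fell thus include inhibitors and receptors of the pathway. Axin2, a target gene of β-catenin, rose by 0.45 (SE 0.12, adjusted p = 0.017), with 0.59, 0.07 and 0.30 in FoxF1 cells and -0.04, -0.17 and -0.17 in wild type cells.

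In the Hedgehog pathway, which induces FoxF1 in the embryo, 6 of 22 genes rose and 7 fell. The receptor Boc fell by 2.45 (SE 0.10, adjusted p = 6.8e-07), and the effector Gli3 and the coreceptor Gas1 rose by 0.78 (SE 0.06, adjusted p = 2.9e-05) and 0.88 (SE 0.14, adjusted p = 0.0015). The ligand gene Shh had a difference of 0.09 (adjusted p = 0.40). Of 39 genes of BMP and activin signaling 14 fell and 7 rose. The ligand Bmp7 fell by 3.31 (SE 0.14, adjusted p = 1.1e-06), the inhibitor Fst by 3.17 (SE 0.07, adjusted p = 3e-08) and the nuclear inhibitor Id4 by 3.68 (SE 0.11, adjusted p = 2.1e-07), and the ligand Bmp4, known from mesenchyme, rose by 0.88 (SE 0.11, adjusted p = 3.4e-04).

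In the list of platelet-derived and vascular endothelial growth factors, 15 of 30 genes rose and 6 fell, with a median difference of 0.16. Pdgfrb had 3.75, 3.67 and 3.48 in FoxF1 cells and -0.14, 0.01 and -0.04 in wild type cells (difference 3.69, SE 0.11, adjusted p = 1.8e-07), and Pdgfra rose by 1.28 (SE 0.11, adjusted p = 5.7e-05). Their ligands Pdgfb and Pdgfa fell, by 2.33 (SE 0.12, adjusted p = 3.5e-06) and 1.02 (SE 0.09, adjusted p = 5.1e-05). Kit, the receptor of stem cell factor found on luminal progenitors, had -4.37, -4.02 and -4.14 in FoxF1 cells and 1.08, 0.98 and 1.21 in wild type cells (difference -5.26, SE 0.10, adjusted p = 2.1e-08). The ligands of lymphatic vessels, Vegfc and Vegfd, rose by 2.76 (SE 0.09, adjusted p = 2.7e-07) and 2.61 (SE 0.08, adjusted p = 2.4e-07), with the coreceptor Nrp1 (2.64, SE 0.12, adjusted p = 1.5e-06).

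Endothelial markers rose in 1 of 17 cases and fell in 3. Cdh5, their defining cadherin, had 0.00 on every FoxF1 array and 0.04, 0.00 and -0.03 on the wild type arrays, and Pecam1, an adhesion molecule of endothelium on chromosome 11, fell, with -1.42, -1.18 and -1.60 in FoxF1 cells and 0.00 on each wild type array. The mean of the list was between -0.16 and -0.12 on FoxF1 arrays and between 0.12 and 0.15 on wild type arrays.

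In the EGF receptor family, 13 of 29 genes fell and 5 rose, with a median difference of -0.06, and 9 fell without the genes on chromosome 11. Erbb3, a receptor for neuregulins, had -3.47, -3.39 and -3.34 in FoxF1 cells and 0.29, 0.11 and 0.19 in wild type cells (difference -3.60, SE 0.05, adjusted p = 5.7e-09). Erbb2, Egfr and the adaptor Grb7, all on chromosome 11, fell by 1.35 (SE 0.07, adjusted p = 2.3e-06), 1.00 (SE 0.06, adjusted p = 5.2e-06) and 3.49 (SE 0.13, adjusted p = 6.1e-07). The ligands Nrg1, neuregulin 1, and Epgn, epigen, rose by 2.57 (SE 0.07, adjusted p = 7.2e-08) and 1.42 (SE 0.09, adjusted p = 1.1e-05).

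Fibroblast growth factors and receptors fell in 11 of 34 cases and rose in 4. Fgf10, a mesenchymal factor that acts on epithelium, had 1.87, 2.09 and 1.96 in FoxF1 cells and -0.07, -0.16 and -0.02 in wild type cells (difference 2.06, SE 0.06, adjusted p = 2.2e-07). Fgf7, which acts on the same receptor form, had 0.02, 0.00 and -0.02 in FoxF1 cells and 2.61, 2.36 and 2.23 in wild type cells (difference -2.40, SE 0.10, adjusted p = 9e-07). NFI-C2 cells were low for both, between -0.05 and 0.08 for Fgf10 and between -0.58 and -0.37 for Fgf7. In the axis of insulin-like growth factors 9 of 25 genes rose and 9 fell. The binding proteins were split, with Igfbp5 (-6.65), Igfbp3 (-4.43) and Igfbp2 (-3.44) lower and Igfbp6 (1.57) and the protease Htra1 (1.71) higher.

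Of 30 YAP and TEAD targets 14 rose and 14 fell. Ccn1, a matricellular protein, rose by 1.46 (SE 0.08, adjusted p = 5.2e-06), its relative Ccn2 fell by 1.03 (SE 0.09, adjusted p = 4.1e-05), and the coactivator Yap1 fell by 1.21 (SE 0.04, adjusted p = 2e-07). Immediate early genes fell in 12 of 28 cases and rose in 6. Fosl1, the AP-1 subunit FRA1, had 2.01, 2.36 and 2.23 in FoxF1 cells and 0.00 on each wild type array (difference 2.20, SE 0.09, adjusted p = 6.9e-07), and Fos fell by 0.82 (SE 0.11, adjusted p = 7.3e-04). Axon guidance genes fell in 25 of 59 cases and rose in 10, with a median difference of -0.02. Sema6a, a transmembrane semaphorin (-3.94), the receptor Robo1 (-3.31) and the ephrin receptor Epha7 (-3.27) fell, and Ntn1, netrin 1, rose by 2.44 (SE 0.10, adjusted p = 9.3e-07).

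Transcription factors of mesoderm rose in 9 of 40 cases and fell in 6, close to the shares of all genes. Next to Prrx1, Ebf1 had 3.17, 3.55 and 3.32 in FoxF1 cells and -0.07, -0.07 and 0.00 in wild type cells (difference 3.39, SE 0.09, adjusted p = 7.6e-08). The related homeobox factor Prrx2 rose by 2.08 (SE 0.12, adjusted p = 5.1e-06) and the T-box factor Tbx18 by 1.66 (SE 0.07, adjusted p = 1.3e-06). Runx1 and Sox9, which also act in mammary epithelium, fell by 2.21 (SE 0.08, adjusted p = 5.4e-07) and 1.94 (SE 0.05, adjusted p = 1.2e-07). Foxf2, the nearest relative of Foxf1, rose by 0.35 (SE 0.08, adjusted p = 0.009), with FoxF1 arrays between -0.01 and 0.08, wild type arrays between -0.42 and -0.21 and NFI-C2 arrays between 0.04 and 0.32.

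Hox genes fell in 6 of 33 cases (18.2%, and 3 without chromosome 11), near the share of all genes, and rose in 2 (4 without FoxF1 replicate 3). Of 34 nuclear receptors 9 rose and 7 fell. Esr1, the estrogen receptor, had 0.86, 0.96 and 0.57 in FoxF1 cells and -0.18, -0.54 and -0.29 in wild type cells (difference 1.14, SE 0.12, adjusted p = 1.9e-04), while the vitamin D receptor Vdr fell by 1.58 (SE 0.07, adjusted p = 1.9e-06). Chromatin genes fell in 11 of 29 cases and rose in 2. Cbx8, Cbx2, Pcgf2 and Suz12, which encode Polycomb proteins, fell by 1.12 (SE 0.06, adjusted p = 3e-06), 0.93 (SE 0.06, adjusted p = 1.3e-05), 0.89 (SE 0.09, adjusted p = 1.3e-04) and 0.77 (SE 0.07, adjusted p = 4.6e-05), and all 4 lie on chromosome 11. Without that chromosome 5 of the list fell.

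DNA methylation and imprinted genes fell in 10 of 23 cases and rose in 2. Peg3, an imprinted zinc finger gene expressed from the paternal allele, had -4.53, -4.66 and -4.64 in FoxF1 cells and -0.01, 0.00 and 0.02 in wild type cells, a 24.5-fold difference (adjusted p = 1e-08). Tet1, which oxidizes methylated cytosine, fell by 2.19 (SE 0.05, adjusted p = 6.5e-08) and Dnmt1, the maintenance methyltransferase, by 0.42 (SE 0.08, adjusted p = 0.0031). DNA methylation itself was not measured.

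Among matrix genes outside the lysyl oxidases, collagens rose in 8 of 28 cases and fell in 11. Col5a1, of fibrillar collagen V, had 2.33, 2.49 and 2.36 in FoxF1 cells and -0.02, 0.09 and 0.00 in wild type cells (difference 2.37, SE 0.05, adjusted p = 3e-08). Col3a1, of collagen III, had 2.98, 2.42 and 1.59 in FoxF1 cells and 0.03, 0.00 and 0.00 in wild type cells (difference 2.32, SE 0.30, adjusted p = 5e-04), with a spread among FoxF1 arrays like that of Ogn. Col12a1 rose by 2.23 (SE 0.10, adjusted p = 1.4e-06), and Col17a1, the collagen of hemidesmosomes, fell by 4.15 (SE 0.10, adjusted p = 7.2e-08). The main chains of collagen I, Col1a1 and Col1a2, rose by only 0.45 (SE 0.12, adjusted p = 0.023) and 0.50 (SE 0.06, adjusted p = 3.7e-04).

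Fibroblast markers rose in 7 of 15 cases and fell in 2, and their mean value was between 0.23 and 0.62 on FoxF1 arrays and between -0.11 and -0.04 on wild type arrays. Of the defining proteoglycans, Lum, lumican, had 0.00 on every FoxF1 and wild type array, with 8 of the 9 arrays at a shared lowest value. Dcn, decorin, had 1.10, 0.41 and 0.05 in FoxF1 cells and 0.16, 0.00 and -0.07 in wild type cells (adjusted p = 0.20 in the limma fit), with overlapping arrays. S100a4, a calcium-binding protein of fibroblasts, had 3.23, 3.24 and 3.19 in FoxF1 cells and -0.17, -0.23 and 0.00 in wild type cells (difference 3.35, SE 0.10, adjusted p = 1.7e-07). Postn, the matricellular protein periostin, went the other way, with -4.92, -5.51 and -6.24 in FoxF1 cells and 0.00, -0.06 and 0.05 in wild type cells. The proteoglycans and hyaluronan genes had 9 of 32 higher and 6 lower, with Bgn, biglycan, at 1.49 (SE 0.17, adjusted p = 2.3e-04) and Acan, aggrecan, at -2.84 (SE 0.08, adjusted p = 1.2e-07). Whether other cells in the FoxF1 cultures have a part in these values was not tested.

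Metalloproteases and their inhibitors rose in 11 of 36 cases and fell in 8, with Mmp16, a membrane-bound matrix metalloprotease, at 2.80 (SE 0.15, adjusted p = 3.8e-06) and the inhibitor Timp3 at -1.75 (SE 0.10, adjusted p = 5.5e-06). Serine proteases and serpins fell in 14 of 40 cases and rose in 11. The epithelial protease St14, matriptase, and its inhibitors fell together. St14 had -5.06, -4.73 and -5.31 in FoxF1 cells and 0.25, 0.28 and 0.27 in wild type cells (difference -5.30, SE 0.13, adjusted p = 5.2e-08), and Spint2 and Spint1 fell by 5.34 (SE 0.07, adjusted p = 3.1e-09) and 4.49 (SE 0.13, adjusted p = 1.3e-07). Prss8, prostasin, which matriptase activates, fell by 2.80 (SE 0.14, adjusted p = 2.5e-06). In contrast the plasminogen activator Plau and its receptor Plaur rose by 1.21 (SE 0.07, adjusted p = 4.6e-06) and 1.15 (SE 0.12, adjusted p = 1.4e-04).

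Smooth muscle contractile genes rose in 12 of 30 cases and fell in 6. Actg2, the γ-actin of enteric smooth muscle, had 3.01, 2.53 and 3.14 in FoxF1 cells and 0.03, -0.11 and 0.00 in wild type cells (difference 2.92, SE 0.14, adjusted p = 2e-06). Acta2, the smooth muscle α-actin that basal mammary cells also make, rose by 1.96 (SE 0.14, adjusted p = 1.5e-05) and the calponin Cnn1 by 1.18 (SE 0.08, adjusted p = 1.5e-05). Skeletal and cardiac muscle markers rose in 1 of 14 cases and fell in 3. In the dystrophin complex 6 of 18 genes rose and 5 fell, with Sgcd, δ-sarcoglycan, at 3.27 (SE 0.10, adjusted p = 2.2e-07) and the syntrophin Sntb1 at -4.01 (SE 0.10, adjusted p = 6.5e-08).

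Neuronal-type genes were divided, 10 of 37 higher and 10 lower. Ncam1 had 3.26, 3.42 and 3.24 in FoxF1 cells and -0.69, -0.36 and -0.49 in wild type cells (difference 3.82, SE 0.11, adjusted p = 1.3e-07), and Tubb3, a β-tubulin of neurons, rose by 1.84 (SE 0.10, adjusted p = 4.7e-06), whereas the microtubule-binding protein Map7 of epithelia fell by 3.29 (SE 0.08, adjusted p = 6.5e-08). Of 10 neural and Schwann cell markers, Ncam1 and Tubb3 among them, 3 rose and 0 fell. Their mean value was between 0.50 and 0.58 on FoxF1 arrays and between -0.12 and -0.10 on wild type arrays. The median difference of the list was 0.02, so that the mean rests on the 3 that rose. Genes of the primary cilium rose in 11 of 31 cases and fell in 10 (4 after quantile normalization).

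Of 35 potassium channels 6 rose and 3 fell, and the leak channel Kcnk1 had -4.16, -4.18 and -4.51 in FoxF1 cells and 0.78, 0.82 and 0.72 in wild type cells, a 33.3-fold difference (adjusted p = 1.3e-08). Of 37 calcium, sodium and chloride channels 12 fell and 5 rose. The chloride channel Ano1 fell by 3.85 (SE 0.10, adjusted p = 9.8e-08), the calcium channels Trpv6 and Trpv4 by 3.76 (SE 0.06, adjusted p = 1.3e-08) and 2.45 (SE 0.04, adjusted p = 6.4e-09) and the chloride channel Cftr by 1.75 (SE 0.13, adjusted p = 1.8e-05).

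Glycosyltransferases of mucins and sialic acids fell in 16 of 40 cases and rose in 10. Galnt3, which starts mucin-type glycans, fell by 4.27 (SE 0.07, adjusted p = 8.6e-09), and St3gal5, which makes the ganglioside GM3, rose by 2.64 (SE 0.09, adjusted p = 2.7e-07). S100 and annexin genes rose in 9 of 28 cases and fell in 8. Genes of milk and lactogenic signaling fell in 9 of 22 cases and rose in 3. Ltf, lactoferrin, had -1.94, -1.60 and -1.62 in FoxF1 cells and 3.11, 3.19 and 3.30 in wild type cells, a 30.3-fold difference (adjusted p = 2.5e-08), and Elf5, the ETS factor of milk-forming cells, fell by 1.68 (SE 0.12, adjusted p = 2e-05). NFI-C2 cells lay between the 2 groups for both genes. NFI-C2 minus wild type was -3.25 for Ltf and -0.84 for Elf5, and FoxF1 minus NFI-C2 was -1.67 and -0.84. The caseins Csn1s1 and Csn1s2a were at 0.00 on every FoxF1 array, and their wild type arrays were between 0.00 and 0.02. They had 7 and 8 of the 9 arrays at a shared lowest value, so an unchanged level cannot be read from them. The casein Csn3, named after its values were seen, had 0.40, 0.14 and 0.27 in FoxF1 cells and 0.00, 0.00 and 0.02 in wild type cells (difference 0.26, SE 0.06, adjusted p = 0.0073), with 5 of the 9 arrays at a shared lowest value. Of 12 reference genes 5 rose (1 after quantile normalization) and 2 fell, by 0.43 or less, and Actb had 0.13 (SE 0.02, adjusted p = 0.0011).

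The changes were not spread evenly over chromosomes. For 18225 genes the cluster and the RefSeq gene lay on the same chromosome, and over these 20.1% rose and 18.8% fell. On chromosome 11 32.4% of 1469 genes fell (Wilson 95% confidence interval 30.1 to 34.8%) and 13.2% rose, and on chromosome 16 29.1% of 587 fell (25.6 to 32.9%) and 10.1% rose. Without the genes that have 2 or more arrays at a shared lowest value, 38.5% fell on chromosome 11 and 39.6% on chromosome 16, so that the order of these 2 chromosomes turned. Chromosome 15 had the largest share that rose (34.6% of 702, 31.2 to 38.2%), followed by chromosomes 8 (31.7%), 3 (31.3%) and 14 (29.8%). Without the genes at a shared lowest value the shares were 42.5% on chromosome 15, 40.2% on chromosome 3, 38.7% on chromosome 14 and 37.5% on chromosome 8. These intervals take genes as independent, which neighbours are not.

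**Figure D4:**
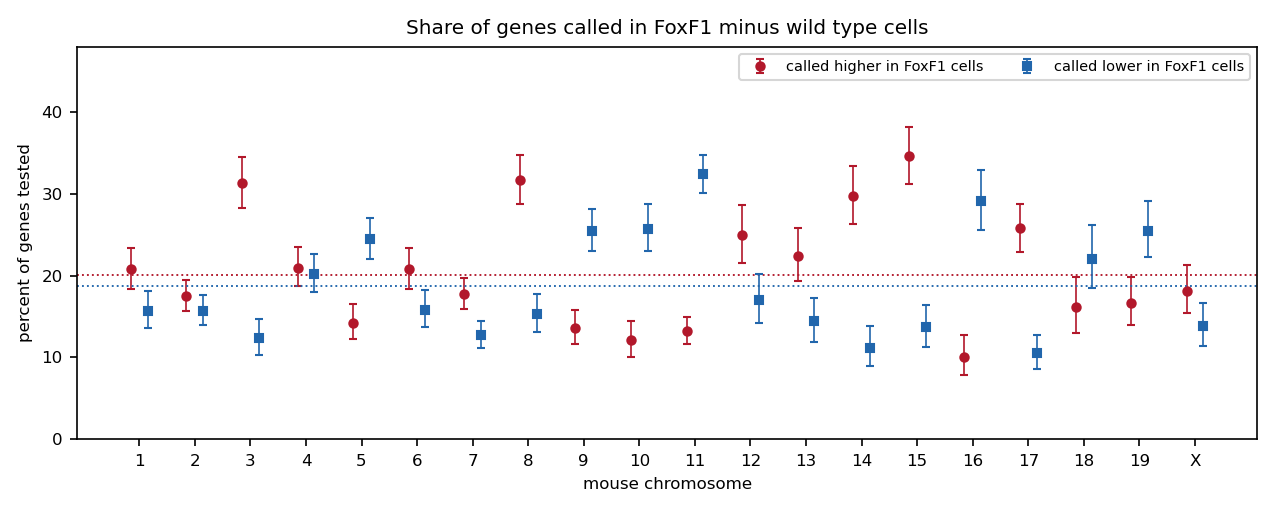
Percent of tested genes on each mouse chromosome that rose (circles) or fell (squares) in FoxF1 minus wild type cells, with Wilson 95% confidence intervals and the shares of all genes as dotted lines. Chromosome 11 has 32.4% lower and chromosome 15 has 34.6% higher.

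On chromosome 11 the falls were concentrated toward the end. From 115 Mb on (NCBIM37), a boundary set after the values were seen, 172 genes from Slc9a3r1 to Ptchd3 were tested, of which 114 fell (66.3%) and 2 rose, with a median difference of -0.80. The medians of these genes were -0.71, -0.62 and -0.73 on the FoxF1 arrays and 0.00, 0.01 and 0.00 on the wild type arrays. The 3 FoxF1 arrays were thus alike and all below the wild type arrays. In NFI-C2 minus wild type cells the median of the stretch was 0.04, and in FoxF1 minus NFI-C2 cells it was -0.81. On the rest of the chromosome 27.9% of 1297 genes fell, with a median difference of 0.00. Of 331 windows of 5 Mb with 20 genes or more, the 3 with the lowest medians were all on chromosome 11, at 120 to 125 Mb (-1.15), 115 to 120 Mb (-0.71) and 85 to 90 Mb (-0.32). The window with the highest median was at 105 to 110 Mb on chromosome 4 (0.38, with 58.2% of 55 genes higher).

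Neighbouring genes of quite different function fell together there. The longest run of neighbours that all fell held 14 genes, from Notum to Csnk1d at chr11:120515159-120852647, with differences from -3.24 to -0.24 and a median of -1.80. It contains Fasn, the carbonyl reductase Cbr2 (-3.24, SE 0.17, adjusted p = 2.8e-06) and the small GTPase Rac3. Rac3 had -2.93, -3.10 and -3.01 in FoxF1 cells and 0.06, 0.00 and 0.00 in wild type cells (difference -3.03, SE 0.09, adjusted p = 1.3e-07). A run of 13 genes from Armc7 to Llgl2 (chr11:115336991-115717094, median -1.06) contains the adaptor Grb2 (-0.90, SE 0.08, adjusted p = 5.6e-05) and the polarity gene Llgl2 (-2.05, SE 0.09, adjusted p = 1.5e-06). A run of 12 from Socs3 to Cbx8 (chr11:117828445-118902227, median -0.88) contains Cyth1, an exchange factor for ARF GTPases (-2.81, SE 0.05, adjusted p = 1.6e-08). The number of DNA copies of these regions was not measured, and whether it has a part in the values was not tested.

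**Figure D5:**
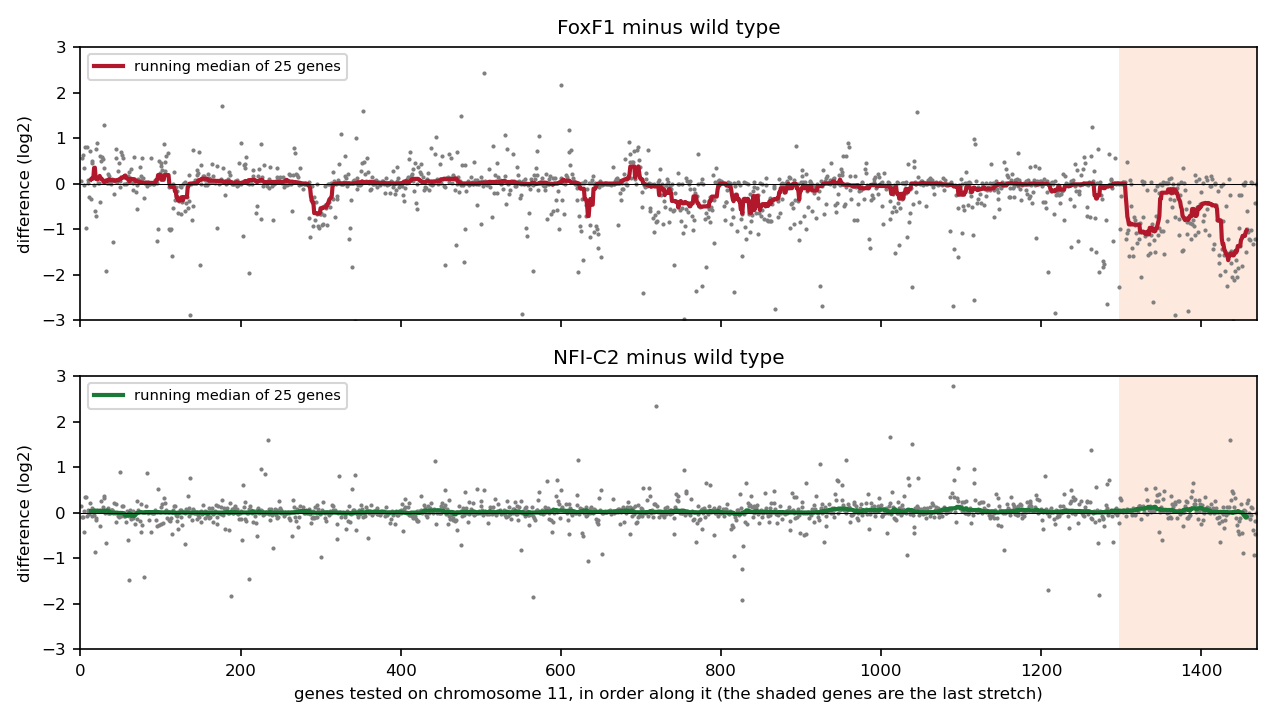
Differences in log2 for the 1469 tested genes of chromosome 11 in order along it, FoxF1 minus wild type above and NFI-C2 minus wild type below, with a running median of 25 genes and the 172 genes from 115 Mb on shaded. The running median is below 0 throughout most of the shaded stretch in FoxF1 cells and near 0 in NFI-C2 cells; 22 genes of the upper panel and 0 of the lower lie beyond the axis limit of 3.

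In all, 39 runs of 5 or more neighbours rose together, with 239 genes, and 39 fell together, with 249 genes. Of the runs that fell, 12 with 99 genes were on chromosome 11. The longest run of rises, of 13 genes from Banf1 to 1700020D05Rik at chr19:5364640-5510489 (median 0.89), includes Fosl1 at the highest difference of the run (2.20). A run of 10 genes on chromosome 2, from Vps39 to Ubr1 (chr2:120142335-120796451), rose with a median of 0.67. In a run of 8 on chromosome 10, from Stx7 to Epb41l2 (chr10:23869123-25243321), Arg1, which encodes arginase 1, fell by 5.64 and Med23, a subunit of the Mediator complex, by 0.20, so that neighbours differed widely in size.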

How the data were processed

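Expression in HC11 cells was measured on 9 arrays (Affymetrix Mouse Gene ST 1.0), with 1 sample and 1 colour each, 3 for FoxF1 cells, 3 for NFI-C2 cells and 3 for wild type cells. The authors processed the scans with RMA, whose version is not given in the sources used here, and deposited log2 values per transcript cluster. All 28815 clusters are centred at a median of 0 across arrays, so levels are not in the values and a difference can still be read. Among the tested genes 4224 have 2 or more arrays at a shared lowest value, where a difference can be understated and the spread is too small. A second deposited table holds the same log2 values within 5e-08. A further deposited file with the authors' own p-values was not used.

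The platform annotation gives 21780 clusters 1 symbol, 1605 several and 5430 none. Only the first were used, 1 cluster per gene by number of probes (998 genes had several). Positions are NCBIM37, and 272 tested genes placed by RefSeq (GRCm38.p6) on a chromosome other than their cluster's were left out of the counts by chromosome. They were not left out of the gene lists. The 3 groups were fitted over the 9 arrays with limma 3.58.1 in R 4.3.3 (degrees of freedom: 6 residual, 1.29 prior) in two-sided tests, with Benjamini-Hochberg adjustment over 18497 genes at 0.05, and a fold criterion of 1.5. An exact permutation test of 3 arrays against 3 cannot give a p below 0.1. The fit was tested on simulated data. Python 3.11.15 with SciPy 1.17.1, NumPy 2.4.6 and pandas 2.3.3 handled the tables, and matplotlib 3.10.9 drew the plots.

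The comparison, the gene lists and the tests were chosen with earlier results of these data known. Genes named are Foxf1, the 15 largest rises and falls with arrays that do not overlap (predicted symbols passed over), per list up to 6 changed members by size, up to 2 that moved against the majority and the first 2 as written, and members of runs. Probes were not checked for sequence shared between gene copies. Alternatives were other normalizations, filters, variances, cluster choices and arrays left out. The number of arrays limits the precision.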

Additional observations from a re-analysis of the deposited data

How the results depend on the processing

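The 7215 genes that differed in FoxF1 cells numbered 1923 when tested against a change of 1.5-fold, with 733 higher and 1190 lower. This test asks for larger changes by construction. Leaving out 1 array at a time gave 6554 to 7024 genes, 3322 to 3709 higher and 3116 to 3401 lower, with 1244 to 1372 and 1629 to 1710 by 1.5-fold or more. Quantile normalization gave 5520 genes, 2526 higher and 2994 lower. By construction it evens out the wider spread of the FoxF1 arrays, so small differences are lost under it. The 2 directions did not change alike, as 45.8% of the genes that differed rose under it and 51.7% without it. With a replicate block, which takes arrays of the same number as paired, 7306 genes differed (3817 higher and 3489 lower). Same-numbered FoxF1 and wild type arrays deviated from their group means with correlations of 0.18, 0.09 and 0.00, so the numbers were not taken as pairs. The block also moved small list counts, with 7 mitosis genes higher in place of 4 and 4 Hox genes higher in place of 2. Of 562 named genes none changed direction in these settings, 44 were no longer past the threshold after quantile normalization, 7 with the block and 161 when tested against 1.5-fold. Without the genes on chromosome 11, a choice made after seeing the data, 6539 genes differed, 3531 higher and 3008 lower, and fewer genes were tested. Some list counts of 1 or 2 moved when 1 array was left out, while others stayed, such as the 2 fibroblast markers that fell. Imprinted and DNA methylation genes then had 1 or 2 higher, cholesterol genes 0 or 1 lower, haematopoietic markers 0 or 1 in either direction and reference genes 1 or 2 lower.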
